A study of Mus musculus with 4 samples.

Results

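The Rab genes are the largest branch of the Ras superfamily of small GTPases, and 54 of the 25050 genes in the table carried a symbol made of Rab, a number and at most 1 letter. RNA was sequenced from HT-22, a line of immortal cells derived from the mouse hippocampus and labelled as neurons, at passages 21 to 24, in 2 libraries of wild type cells and 2 of cells overexpressing Nsmce1, a subunit of the SMC5/6 chromosome maintenance complex. The series' design text calls the treated cells inducible for Nsmce1 and the controls uninduced, while the sample labels call the controls wild type. The inducing agent, the promoter and the number of clones are not stated in these sources. The genes were picked by a rule on the symbol, though the rule was set with earlier results of these data known.

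A Rab protein switches between a GDP-bound state in the cytosol and a GTP-bound state on a membrane. Exchange factors (GEFs) load GTP and place the Rab on its compartment, GTPase-activating proteins (GAPs) end the active state, and GDP dissociation inhibitors (GDIs) extract the protein again. A geranylgeranyl transferase adds the lipid anchors, and effectors that bind only the GTP form carry out tethering, transport along the cytoskeleton and fusion. In neurons these steps serve synaptic vesicle release, axonal transport of endosomes and the turnover of membrane proteins.

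The values are normalised read counts, and the whole reads behind them came to between 25787452 and 44602989 a library. Normalised reads of Nsmce1 itself were 1108, 1206, 17851 and 16525 (here and below, wild type 1 and 2, then overexpression 1 and 2). Of 15 neuron markers, 9 were in the table and 5 were abundant enough to be tested. Most neuron marker reads were of Dlg4 (2385, 1867, 2425 and 2056), Syn1 (1186, 1087, 1024 and 1219) and Tubb3 (622, 574, 446 and 611). Syt1, the calcium sensor of synaptic vesicles, had 8.80, 0, 3 and 2.19. Neuron markers summed to between 3573 and 4338 normalised reads a library, and the 11 fibroblast and mesenchymal markers to between 394886 and 483902. Most of the latter sum was Col1a2, Fn1, Col1a1 and Col3a1, while Lum had 3.77, 13.7, 0 and 0. Of the 10 tested, Col3a1 and Postn were lower in both overexpressing libraries, Acta2 was higher in both, and the others overlapped between groups. The 4 astrocyte markers in the table summed to 3368, 3021, 4560 and 4264, nearly all of it Slc1a3 (3302, 2956, 4537 and 4245), while the other tested one, Aldh1l1, lay the opposite way (57.8, 65.3, 14 and 12.4) and Gfap and Slc1a2 were at or near 0. The 5 microglia and leukocyte markers summed to 2250, 1900, 1655 and 1539, nearly all of it Tmem119 (2184, 1830, 1587 and 1494), while Aif1 overlapped between groups and Csf1r, Cx3cr1 and Ptprc were at or near 0. The part of these genes in the Rab values was not tested. The labels do not say whether the 2 libraries of a group are separate cultures, and the p-values cover the spread among these 4 samples alone, which may be technical. In bulk RNA, fewer cells that express a gene and less of its RNA per cell cannot be told apart.

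Rab transcripts took 0.316%, 0.313%, 0.304% and 0.318% of the reads. Levels were compared between genes as normalised reads per kb of annotated exon. By that measure 9 of the 54 genes had a mean of at least 1000, 27 lay between 100 and 1000, 8 between 10 and 100 and 10 below 10. The median of the 46 tested Rab genes was 371 normalised reads per kb, against 182 over all genes tested.

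Rab7, which drives the maturation of late endosomes and their fusion with lysosomes, stood highest, at 4341, 4867, 4343 and 4615 normalised reads per kb. That is above 98.0% of the genes tested. Rab2a, a Rab of the endoplasmic reticulum (ER) and Golgi, followed at 2325, 2347, 2331 and 2388. The groups overlapped for both genes.

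The next 3 in order were Rab5c, a Rab of early endosome fusion, at 2635, 1999, 1885 and 1809 normalised reads per kb, Rab10, at 1731, 1631, 1917 and 1956, and Rab1a, at 1862, 1917, 1575 and 1691. Their ranges over the libraries overlapped one another, and that of Rab5c also overlapped Rab2a, so the order of these genes is not settled. Rab1b, Rab31, Rab5b and Rab35 completed the genes with a mean of at least 1000. The proteins of these 9 genes serve ER-to-Golgi transport (Rab1a, Rab1b, Rab2a), early endosomes (Rab5b, Rab5c), traffic between the Golgi and endosomes (Rab31), fast endocytic recycling (Rab35), late endosomes (Rab7) and the delivery of exocytic vesicles to the plasma membrane (Rab10).

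**Figure D1:**
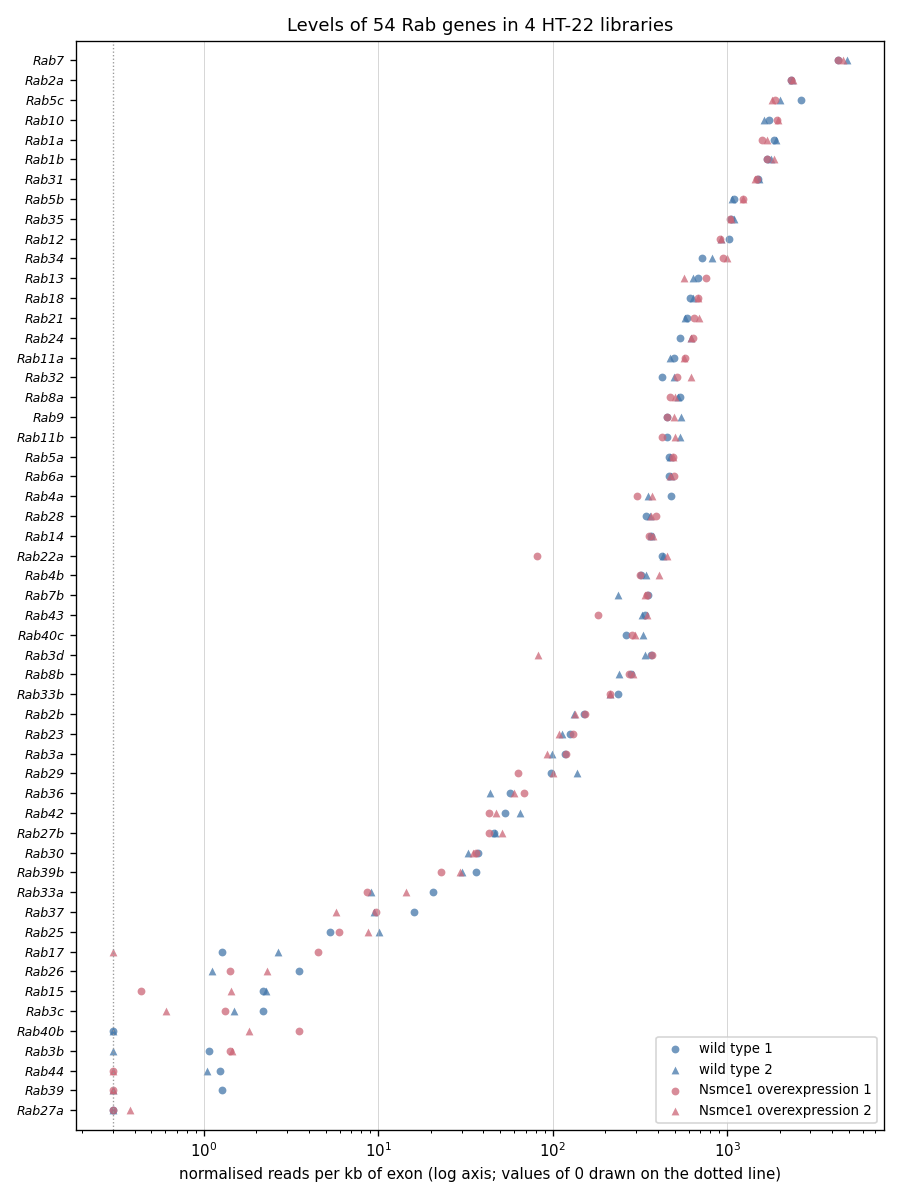
Level of each of the 54 Rab genes in normalised reads per kb of exon (x axis, log scale), 1 point per library, with wild type in blue and Nsmce1 overexpression in red. Rab7 lies highest, at 4341 to 4867, and a single red point stands away from the other 3 libraries for Rab22a, Rab43 and Rab3d.

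Several Rab genes chosen here by name are known for neuronal or regulated secretion, and Rab3d, also of that kind, is described below. Rab3a, the Rab of synaptic vesicles, had 262, 219, 264 and 207 normalised reads, and Rab3c 26.4, 17.9, 16 and 7.30. Rab27b, which acts in the docking of secretory granules and exosome release, had 489, 498, 460 and 545, while its paralog Rab27a had 0, 0, 0 and 1.46. Rab39b, a brain-enriched Rab whose loss causes intellectual disability, had 123, 103, 78 and 99.3. Rab15, Rab26 and Rab3b had at most 10.5 normalised reads in any library. None of them passed the test between groups described below, and Rab15, Rab26, Rab3b and Rab27a were too low to enter it.

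Several subfamilies had the same major member in every library (shares of the subfamily's reads per kb). Rab2a made up 93.9%, 94.7%, 93.8% and 94.7% of the Rab2 pair, and Rab7 92.5%, 95.4%, 92.6% and 93.2% of the pair with Rab7b. Rab8a took between 63.1% and 68.4% beside Rab8b, both Rabs of post-Golgi transport and cilia. Rab11a and Rab11b, the Rabs of recycling endosomes, were near equal, with Rab11a at 52.3%, 46.7%, 57.5% and 53.0%.

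The share of the major member did not overlap between groups in 7 of 14 subfamilies, Rab1, Rab4, Rab5, Rab8, Rab11, Rab32 and Rab40. There is no like background for shares. The 39.1% of all genes whose groups did not overlap is for levels of single genes. In the Rab40 pair the separation rests on 12 reads of Rab40b. For Rab11a the nearest shares were 52.3% in wild type and 53.0% in overexpression. In the Rab5 subfamily Rab5c took 62.8% and 56.6% in wild type, against 52.2% and 51.4% in the cells overexpressing Nsmce1, and Rab5b 26.1% and 30.2% against 34.3% and 34.8%. Rab1a held 52.3% and 52.0% of the Rab1 pair in wild type, against 48.2% and 47.6% in the cells overexpressing Nsmce1. Rab4a, of fast recycling, held 59.9% and 50.5% of the Rab4 pair in wild type, against 49.1% and 47.9% in the cells overexpressing Nsmce1. No gene of these subfamilies passed the test over all genes. Rab5b and Rab32 lie on chromosome 10, which has a raised median, as given below. The shares were not computed with chromosome medians removed. Apart from the groups, Rab3d held 75.2%, 77.3% and 75.4% of the Rab3 subfamily in 3 libraries and 46.6% in overexpression replicate 2.

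**Figure D2:**
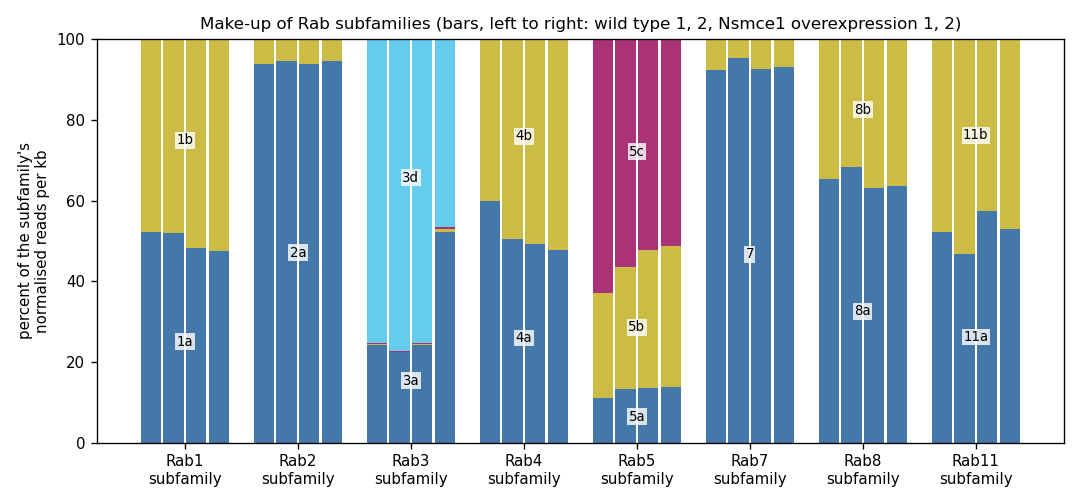
Share of each member in the summed normalised reads per kb of its Rab subfamily (y axis, percent), 1 bar per library in the order wild type 1, 2, overexpression 1, 2. The Rab2 and Rab7 bars are nearly the same in all libraries, the Rab5c part is smaller in both overexpressing libraries, and the Rab3 bar of overexpression replicate 2 stands apart with Rab3d at 46.6%.

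The comparison of overexpressing with wild type cells asked whether any Rab gene differed. Of the 54 genes, 46 averaged 10 or more normalised reads and were tested, and the other 8 had means of at most 7.29. At a limma Benjamini-Hochberg adjusted p under 0.05, 0 of the 46 were called, where 0.193% of all 15540 genes tested were (0.103% higher and 0.0901% lower). The smallest adjusted p among them was 0.440 (limma). The median log2 fold change was -0.011 over the Rab genes and 0.0054 over all genes, and 21 Rab genes lay above 0 and 25 below. For 37 of the 46 the 95% limits lay within a 2-fold change either way, and for 9 they reached beyond it. With 2 libraries against 2, an exact permutation test of a single gene cannot give a two-sided p below 0.333.

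Before adjustment, 6 of the 46, or 13.0%, had a limma p under 0.05, against 7.92% of all genes. Of these 5 were higher in overexpressing cells, where 4.32% of all genes were, and 1 was lower, where 3.6% were. With chromosome medians removed, as described below, Rab34 and Rab11a were the only Rab genes that stayed under this limit. Rab1a, Rab10, Rab5b and Rab21 no longer did, so the 13.0% does not hold in that setting. The share of all genes under the limit in that setting is not given here. The groups did not overlap for 20 of the 46, or 43.5%, against 39.1% of all genes. They were 11 higher ones, where 20.8% of all genes were, and 9 lower ones, where 18.3% were. This share is near the background. A difference of 2-fold or more was found for 2 Rab genes, Rab22a and Rab3d, against 3.37% of all genes.

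**Figure D3:**
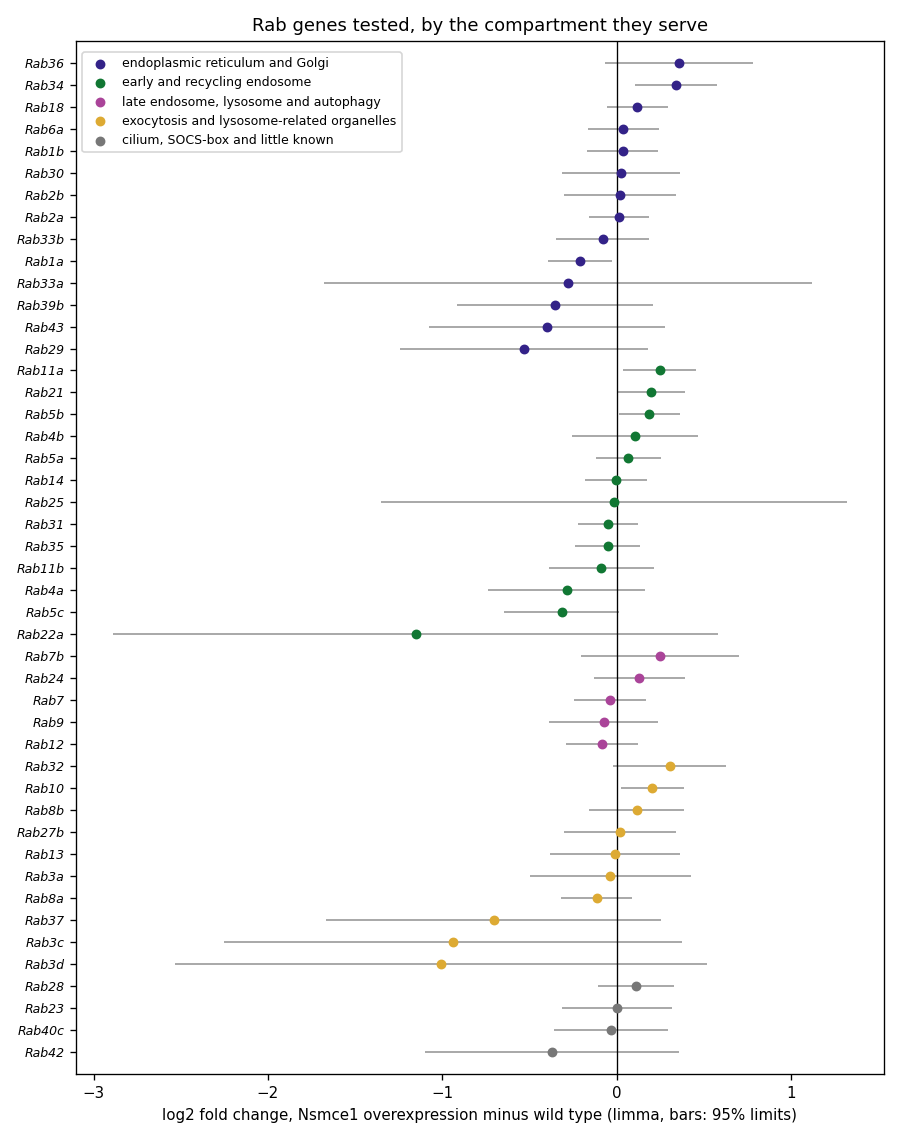
Log2 fold change of each tested Rab gene (x axis, overexpression minus wild type), coloured by the compartment it serves, with 95% limits from limma as bars. Most points lie within 0.2 of 0, and the widest bars among abundant genes belong to Rab22a and Rab3d.

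Among Rabs of the ER and Golgi, 14 of 15 genes were tested, 8 lay above 0 and 6 below, with a median log2 fold change of 0.017. Rab34, a Rab of the Golgi and of cilium formation, had 1718, 1945, 2266 and 2370 normalised reads, with both overexpressing libraries above both of wild type. Its log2 fold change of 0.34 (SE 0.0962) had the smallest unadjusted p of all Rab genes, 0.0117, and missed the threshold over all genes (limma adjusted p = 0.440).

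Rab1a, the Rab of ER-to-Golgi vesicle tethering, had 7073, 7281, 5985 and 6425 normalised reads, with no overlap. The log2 fold change was -0.21 (SE 0.0758, limma adjusted p = 0.562). Its paralog Rab1b had 3864, 4027, 3854 and 4238, and its groups overlapped (log2 fold change 0.035). Rab29, which recruits the kinase LRRK2 to the Golgi, had 143, 202, 93 and 148, a log2 fold change of -0.53 with 95% limits of -1.25 to 0.18. Rab18, a Rab of the ER and lipid droplets, had 4191, 4340, 4641 and 4628, and Rab6a, the Rab of Golgi exit and retrograde Golgi transport, had 1730, 1776, 1839 and 1761.

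Among Rabs of early and recycling endosomes, 13 of 15 were tested, 5 lay above 0 and 8 below, with a median of -0.014. Rab11a, which returns cargo from recycling endosomes to the cell surface, had 1481, 1403, 1722 and 1699 normalised reads (log2 fold change 0.25, SE 0.0865, limma adjusted p = 0.549). The groups did not overlap, whereas those of Rab11b did, at 2770, 3277, 2603 and 3090.

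The members of the Rab5 subfamily, which share the task of early endosome fusion, lay on both sides of 0. Rab5a had 2446, 2463, 2570 and 2576 normalised reads. Rab5b had 4600, 4490, 5209 and 5147 (log2 fold change 0.19, SE 0.0716, limma adjusted p = 0.594). Rab5c had 5781, 4386, 4136 and 3970. All 3 had groups that did not overlap, with Rab5c the lower one. Its log2 fold change of -0.31 (limma adjusted p = 0.649) was -0.11 without wild type replicate 1 and -0.51 without wild type replicate 2. Summed over the 3 genes, the reads were 12826, 11339, 11915 and 11693, and the groups overlapped.

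Rab31, Rab35 and Rab14 varied little, though for Rab31 and Rab35 both overexpressing libraries lay below both wild type libraries. Rab31, which sorts receptors between the Golgi and endosomes, had 5757, 5826, 5680 and 5519 normalised reads (log2 fold change -0.049). Rab14, a Rab between the Golgi and endosomes, had 4966, 4965, 4838 and 5070. Rab35 had 2982, 3096, 2911 and 2952. On the log2 scale the 95% limits were -0.22 to 0.12 for Rab31, -0.24 to 0.14 for Rab35 and -0.18 to 0.17 for Rab14.

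All 5 Rabs of late endosomes, lysosomes and autophagy were tested, with 2 above and 3 below 0 and a median of -0.038. Rab7 had 11330, 12703, 11335 and 12045 normalised reads (log2 fold change -0.038, 95% limits -0.25 to 0.17). Rab12, a Rab of transferrin receptor degradation, had 3091, 2807, 2773 and 2791. Rab9, which returns mannose 6-phosphate receptors to the Golgi, had 792, 953, 790 and 863. Rab24, a Rab linked to autophagy, had 1078, 1246, 1287 and 1248, and Rab7b, which acts between endosomes and the Golgi, 1628, 1090, 1606 and 1566. In all 5 the wild type libraries differed from each other by more than the means of the groups did.

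Of the Rabs of exocytosis and lysosome-related organelles, 10 of 13 were tested, with 4 above and 6 below 0 and a median of -0.022. Rab10, which brings GLUT4 vesicles and other exocytic carriers to the plasma membrane, had 6081, 5731, 6736 and 6873 normalised reads. The groups did not overlap, and the log2 fold change was 0.20 (SE 0.0738, limma adjusted p = 0.562). An antisense gene, Rab10os, overlaps Rab10, and whether reads were counted by strand is not stated in these sources. Rab8a had 2496, 2431, 2194 and 2363, and Rab8b 1333, 1134, 1296 and 1371. Rab13, a Rab of junction assembly, had 1556, 1469, 1748 and 1292.

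Rabs of the cilium, those with a SOCS box and little known ones had 4 of 6 genes tested, with a median of -0.015. Rab23, an inhibitor of Hedgehog signalling, had 1042, 932, 1084 and 896 normalised reads, and Rab28 1548, 1634, 1775 and 1667. Rab40c, whose SOCS box recruits a cullin ubiquitin ligase, had 815, 1025, 880 and 910.

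The 4 tested Rab genes on chromosome 10 all lay above 0, where the median over the 752 genes tested was 0.14 on the log2 scale. Rab5b, given above, is one of them. Rab21, a Rab of integrin traffic, had 2961, 2888, 3244 and 3472 normalised reads (log2 fold change 0.20, SE 0.0802, limma adjusted p = 0.624). Rab32, which serves lysosome-related organelles and mitochondria, had 992, 1158, 1206 and 1453. Rab36 had 353, 271, 424 and 371.

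Once chromosome medians were subtracted, Rab5b went to a log2 fold change of 0.048 (SE 0.0719), Rab21 to 0.058 (SE 0.0806), Rab32 from 0.30 to 0.16 (SE 0.134) and Rab36 from 0.36 to 0.22 (SE 0.176). Over the 42 tested Rab genes on other chromosomes, 17 lay above 0 and the median was -0.033. Rab34 on chromosome 11, Rab11a on chromosome 9 and Rab10 on chromosome 12 moved less in that setting, to 0.37, 0.22 and 0.17. None of the tested Rab genes lies on chromosome 16, the other chromosome with a raised median (0.17).

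In 3 abundant Rab genes the difference lay between the overexpressing libraries. Rab22a, which sorts and recycles cargo at early endosomes, had 3051 and 3094 normalised reads in the controls, 585 in overexpression replicate 1 and 3259 in replicate 2. The overexpressing libraries differed 5.56-fold and the wild type libraries 1.01-fold. The counting error of the low value, a 95% Poisson interval from its 585 reads, runs from 539 to 634 normalised reads.

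Rab3d, a Rab of secretory granule release, had 1535 and 1426 in wild type, 1557 in overexpression replicate 1 and 347 in replicate 2. Here it was the other overexpressing library that was low, 4.47-fold below its partner, while the wild type libraries differed 1.08-fold. The interval of the low value, from 476 reads, is 317 to 380 normalised reads. Rab43, a Rab of ER and Golgi transport, had 1859 and 1799 in wild type, 1005 in overexpression replicate 1 and 1912 in replicate 2.

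With the low library in 1 group, the group comparison of these genes had wide limits. Rab22a had a log2 fold change of -1.15 with 95% limits of -2.89 to 0.58 (limma adjusted p = 0.731), and Rab3d one of -1.01 with limits of -2.53 to 0.52 (limma adjusted p = 0.731). Without overexpression replicate 2, Rab22a stood at -2.39 and was called (limma adjusted p = 0.00219), and without replicate 1 it stood at 0.085 (limma adjusted p = 0.915). For Rab3d the value was -2.09 without replicate 1, which was a call (limma adjusted p = 0.00707), and 0.073 without replicate 2 (limma adjusted p = 0.901). In each such fit 1 group holds a single library, which is assumed to vary like the other pair. The table therefore gives no direction for either gene that both overexpressing libraries share.

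**Figure D4:**
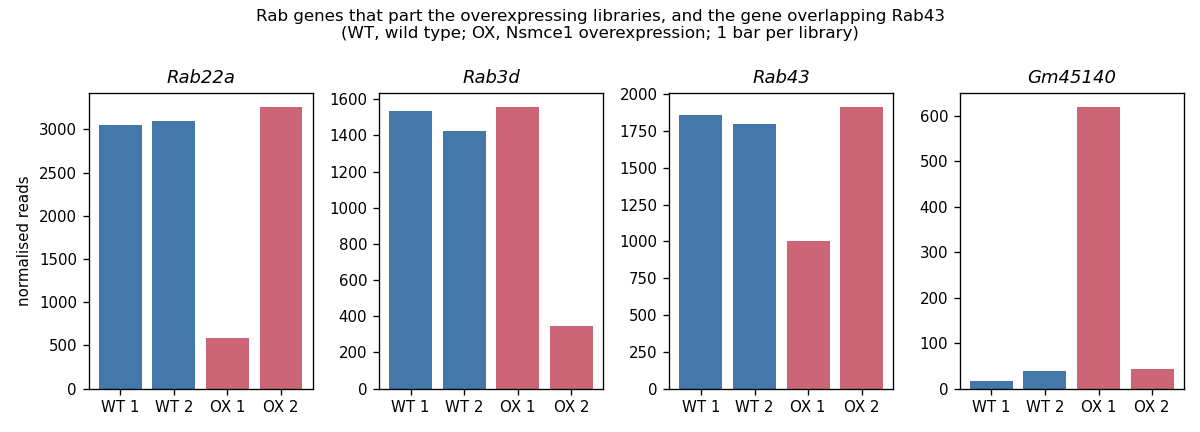
Normalised reads of Rab22a, Rab3d, Rab43 and Gm45140 (y axes, each from 0), 1 bar per library. Rab22a and Rab43 are low in overexpression replicate 1, at 585 and 1005, Rab3d is low in replicate 2, at 347, and Gm45140 is high in replicate 1, at 619.

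Of the 35 Rab genes with a mean of at least 500 normalised reads, these 3 were the ones whose overexpressing libraries differed at least 1.5-fold, a limit chosen after the values were seen. The next largest ratio was 1.35-fold. Of all 8872 genes at that level, 2.74% did so. In the wild type pair 0 of the 35 Rab genes and 2.14% of all genes reached 1.5-fold. A 4-fold difference was reached by 2 Rab genes in the overexpressing pair, against 0.169% of all genes, and by 0 in the wild type pair, against 0.101%. Single genes that part 2 libraries of a group were thus present in both groups of the table. Apart from these 3, the log2 fold changes of the 32 other Rab genes at this level ran from -0.31 to 0.34.

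**Figure D5:**
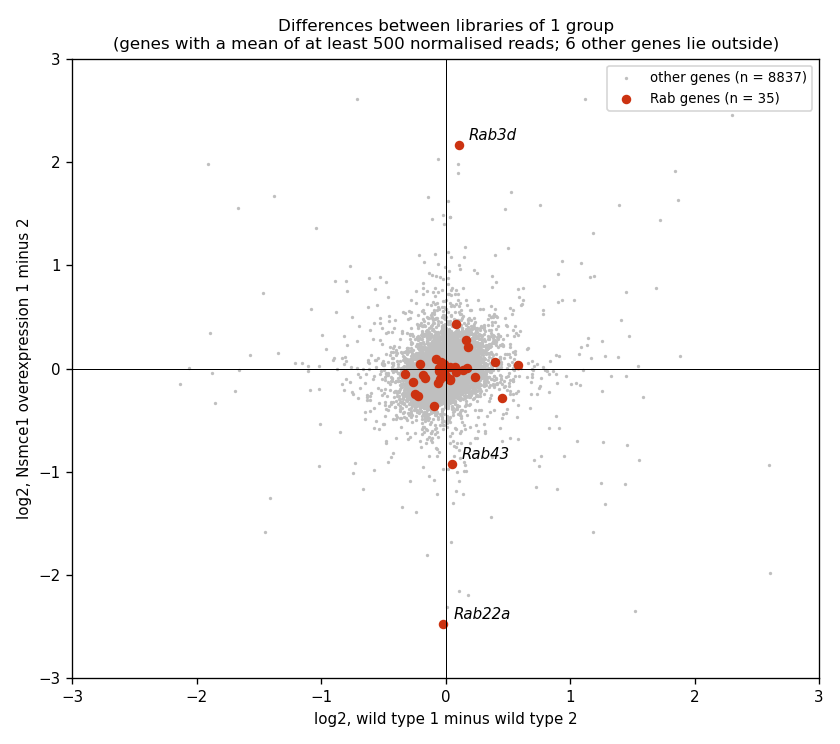
Log2 difference between the 2 wild type libraries (x axis) and between the 2 overexpressing libraries (y axis) for 35 Rab genes (red) and 8837 other genes (grey) with a mean of at least 500 normalised reads. Rab22a, Rab3d and Rab43 lie along the vertical axis, away from the other Rab genes, and 6 other genes lie outside the range shown.

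The gene neighbours of Rab22a did not follow it. Vapb, next to it, had 3192, 3173, 3224 and 3258 normalised reads, and the overexpressing libraries differed 1.01-fold. On the other side Ppp4r1l-ps differed 1.15-fold. Beside Rab3d, Tmem205 had 171, 181, 207 and 121 and was lowest in the same library as Rab3d, with a 1.70-fold difference between the overexpressing libraries. On its other side Angptl8 differed 1.14-fold. None of the 50-base stretches in the annotated transcripts of Rab22a or Rab3d occurs in a transcript of another gene in GENCODE M21. Stretches were compared in the direction of the transcripts only. What made the value of a single library low was not tested.

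For Rab43 the same count gave 74.5%, all of it shared with Gm45140, a gene model that overlaps Rab43 on the same strand. Gm45140 had 16.3 and 39.0 normalised reads in wild type, 619 in overexpression replicate 1 and 43.8 in replicate 2, so it was high in the library in which Rab43 was low. Added together the pair had 1875, 1838, 1624 and 1956 normalised reads. The sum differed 1.20-fold between the overexpressing libraries, where Rab43 alone differed 1.90-fold, and its log2 difference between groups was -0.059 in place of -0.40. Isy1, which overlaps Gm45140 on the same strand, had 1252, 1404, 947 and 1288 and was also lowest in overexpression replicate 1. With Isy1 added, the sum was 3127, 3242, 2571 and 3244, a log2 difference of -0.14 and 1.26-fold between the overexpressing libraries. The value of Rab43 by itself is therefore uncertain.

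Among the other Rab genes, Rab4b had the largest share of its 50-base stretches in common with another gene, 58.1%, with 56.0% in the overlapping Gm21983. Rab7 with 11.2%, Rab5b with 9.80% and Rab11b with 9.47% followed. Further Rab genes had smaller shares, Rab34 (2.87%) and Rab11a (1.85%) among them. Gm21983 had at most 8.43 normalised reads, the pseudogene Rab7-ps1 between 361 and 447 and Rab11b-ps2 between 313 and 392. How the authors assigned such reads is not stated in these sources.

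The RefSeq promoter table (build GRCm38.p6) held 44 of the 54 Rab genes, with 56 start sites whose window was complete. The 250 bases before the start are shown for the pair of genes that part the overexpressing libraries and, beside them, for Rab11a, a member with close libraries. Capitals mark the GC box, GGGCGG or its reverse complement CCGCCC.
Rab22a, chr2:173659595-173659844, + strand: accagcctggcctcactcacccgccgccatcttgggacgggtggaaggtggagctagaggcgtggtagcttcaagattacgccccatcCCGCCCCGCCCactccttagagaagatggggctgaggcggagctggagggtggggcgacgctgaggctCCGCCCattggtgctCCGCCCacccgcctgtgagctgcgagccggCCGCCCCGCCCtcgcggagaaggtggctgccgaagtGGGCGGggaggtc
Rab3d, chr9:21918184-21918433, - strand: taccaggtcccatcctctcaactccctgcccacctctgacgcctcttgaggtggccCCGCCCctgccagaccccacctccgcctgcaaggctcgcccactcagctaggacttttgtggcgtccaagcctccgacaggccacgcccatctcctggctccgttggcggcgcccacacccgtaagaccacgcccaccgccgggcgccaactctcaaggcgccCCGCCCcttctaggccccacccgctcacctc
Rab11a, chr9:64737757-64738006, - strand: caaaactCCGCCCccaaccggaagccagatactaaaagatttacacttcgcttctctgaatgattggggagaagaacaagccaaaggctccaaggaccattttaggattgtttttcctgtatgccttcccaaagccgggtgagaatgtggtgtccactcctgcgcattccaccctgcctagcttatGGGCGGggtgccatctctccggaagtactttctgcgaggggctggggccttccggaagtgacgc

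The Rab22a window holds 7 GC boxes, counting overlapping ones, and the windows of Rab3d and Rab11a hold 2 each. The share of G and C is 70.0% for Rab22a, 69.2% for Rab3d and 53.6% for Rab11a. On either strand 66.1% of the Rab windows hold a GC box, against 32.7% of all 32851 windows of the same length. The E-box CACGTG, the core of the element bound by the lysosomal regulator TFEB, is in 7.14% of the Rab windows and 6.02% of all. The genes with it are Rab5a, Rab21, Rab23 and Rab27a. TATAAA is in 7.14% of the Rab windows and 12.4% of all, and CCAAT in 41.1% and 33.8%. These matches describe the letters of the windows alone.

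At the lower end, 4 genes, Rab44, Rab40b, Rab39 and Rab27a, had reads in 1 group alone. The share of all genes with reads in 1 group alone was not counted. Rab39 and Rab27a each had reads in a single library. Rab44, a large Rab of immune cell granules, had 6.29 and 5.27 normalised reads in the controls and 0 in both overexpressing libraries. Against a floor of 3 reads over the group's 2 libraries, Rab44 was 4.53-fold lower. Rab40b, a paralog of Rab40c, had 0 in both wild type libraries, 7 in overexpression replicate 1 and 3.65 in replicate 2. By the same floor Rab40b was 2.94-fold higher. Neither fold includes the counting error of the group with reads, so neither is a lower limit. Rab44 and Rab40b rest on 10 and 12 reads in all and were below the level tested. Rab39 had 3.77 normalised reads in wild type replicate 1 and 0 in the other libraries. Rab17 had 2.51, 5.27, 9 and 0 and was also below the level tested.

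The partners of the Rabs gave 143 tested genes of 166 listed, and 0 were called over all genes (limma). At an unadjusted limma p under 0.05, 9 were higher and 3 lower: 1 higher Rab-like GTPase, 1 higher exchange factor, 3 higher and 3 lower GAPs and 4 higher effectors. Of all genes 4.32% were higher and 3.6% lower at that limit, so 12 of 143 is near the background. Among 8 genes of prenylation and of the GDI cycle, 5 lay above and 3 below 0 (median 0.013). Rabggtb, the catalytic subunit of the geranylgeranyl transferase, had 3901, 4382, 3702 and 3637 normalised reads, without overlap (log2 fold change -0.17, limma adjusted p = 0.694). Rabif, a Rab chaperone, had 677, 714, 615 and 607, and Rabac1, a Golgi factor that frees Rabs from GDI, had 1182, 1350, 1014 and 1215, and both stood at -0.19.

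Exchange factors had 42 tested genes, 25 above and 17 below 0, with a median of 0.025. Trappc10, a subunit of the TRAPPII complex, lies on chromosome 10 and had 3052, 3044, 3447 and 3884 normalised reads (log2 fold change 0.26, and 0.12 with chromosome medians removed). Mon1a, which with Ccz1 forms the exchange factor for Rab7, had 254, 270, 334 and 315 and stood at 0.31 (limma adjusted p = 0.659). Rgp1, which with Ric1 acts on Rab6, had 1786, 1795, 1971 and 2009 and stood at 0.15. Dennd6a, which acts on Rab14, had 1124, 1030, 1172 and 1259 and stood at 0.17.

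GAPs had 37 tested genes, 16 above and 21 below 0, with a median of -0.0087. Sgsm2, a TBC-domain protein that binds Rab9 and acts on Rab32 and Rab33b, had the smallest p of all partner genes. Its reads were 1544, 1520, 1092 and 1012 (log2 fold change -0.54, SE 0.0928, limma adjusted p = 0.160). Its relative Sgsm1 had 751 and 721 against 548 and 541 (log2 fold change -0.43, limma adjusted p = 0.350). Tbc1d9b had 4469 and 4629 against 3846 and 3835 (log2 fold change -0.24, limma adjusted p = 0.473). In all 3 genes both overexpressing libraries lay below both wild type libraries, without a call. Tbc1d23, on chromosome 16, had 1773, 1522, 2115 and 2028 and stood at 0.33, and at 0.17 with chromosome medians removed.

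Effectors had 51 tested genes, 28 above and 23 below 0, with a median of 0.0028, and 3 of the 4 with the smallest p lie on chromosome 16. Golgb1, the golgin giantin, had 6583, 6344, 8602 and 8214 normalised reads (log2 fold change 0.38, SE 0.0727, limma adjusted p = 0.203). Acap2, which binds Rab35, had 5510, 5325, 6663 and 6571 and stood at 0.29. Rubcn, a Rab7-binding inhibitor of autophagy, had 2702, 3806, 4567 and 4452 and stood at 0.49. With chromosome medians removed the log2 fold changes of Golgb1, Acap2 and Rubcn were 0.21, 0.12 and 0.32. Sytl1, an effector of Rab27, had 25.2, 25.3, 54 and 39.4. Among 5 tested Rab-like GTPases, Rabl3, also on chromosome 16, had 319 and 326 against 425 and 476 (log2 fold change 0.48, limma adjusted p = 0.418) and stood at 0.31 with chromosome medians removed. The other 4 ran from -0.11 for Ift22 (783, 878, 751 and 786) to 0.082 for Rabl6 (2990, 3059, 3154 and 3249), with Ift27 at 788, 797, 874 and 767.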

How the data were processed

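Deposited values are log2, 1 column for each of the 4 libraries, matched by name. Trizol RNA went through a TruSeq kit and BGISEQ-500 sequencing, per the labels' protocols, and the processing notes of the submitters list HISAT, Cufflinks and mm9. After the deposited log2 scale and the added 1 were removed, 100% of values came out as whole reads (within 0.001 read). A read counts as 1.26 (wild type 1), 1.05 (wild type 2), 1.00 (overexpression 1) or 0.730 (overexpression 2).

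Genes averaging 10 or more were fitted with limma 3.58.1 (R 4.3.3), with a trend and group as the only term. P-values were Benjamini-Hochberg adjusted over all of them, with 0.05 as threshold. The added 1 makes fold changes of low genes too small. The limma fit was tried on simulated data with an assumed spread. Chromosomes, exon lengths and shared 50-base stretches are from GENCODE M21 (GRCm38, not mm9), for 24952 genes matched by identifier. Intervals cover counting error only, and floors only that of the group at 0.

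Members and lists were chosen with earlier results of these data known. Genes given by library are the 10 members with the smallest p, the 8 highest per length, the 3 with most reads in each compartment, those read in 1 group alone, close paralogs, and the 4 smallest p of each partner list; others, Rab22a, Rab3d and Rab43 among them, were named after their values were seen. Of the partner genes this rule names, 1 is not reported here. Alternatives changed the pseudocount, filter, scaling and variance model, or used voom, a replicate block, chromosome medians removed, or each library left out.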

Additional observations from a re-analysis of the deposited data

How the results depend on the processing

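The 0 calls among Rab genes held under every alternative that kept all 4 libraries, and 0 to 1 were called with a library left out: Rab3d without overexpression replicate 1 and Rab22a without overexpression replicate 2. The partner genes gave 0 calls in every setting. The median of the Rab genes ran from -0.036 to 0.019 with a library left out. Over all genes, 30 calls became 16 with no filter, 18 with quantile normalization, 9 without a trend, 72 with robust variances, and between 2 and 75 with a library left out (2 and 9 without wild type 1 and 2, 51 and 75 without overexpression 1 and 2). The replicate block gave 60, and 0 among Rab genes. Same-numbered libraries did not deviate together (r = 0.0068 across tested genes), and nothing in the labels pairs them. The direction held in 582 of 591 values of 17 Rab and 20 partner genes. A changed filter, no trend, robust variances and the replicate block leave each log2 fold change as it was, so those values could not turn. The 17 Rab genes include those with the smallest p, so the count does not cover the other Rab genes. The direction turned for Rab2a with quantile normalization (-0.0086). With a library left out, ranges among these genes crossed 0 for Rab22a (-2.39 to 0.085), Rab3d (-2.09 to 0.073) and Rab43 (-0.86 to 0.064). They crossed 0 also for Rab7 (-0.12 to 0.044), Rab2a (-0.0032 to 0.032), Rab1b (-0.034 to 0.10) and Ift27 (-0.047 to 0.14). Ranges of other Rab genes crossed 0 too, such as Rab13 (-0.23 to 0.21) and Rab7b (-0.038 to 0.54), but were not counted. The cause was not tested. With 2 libraries a group, the widths of the 95% limits bound what can be seen.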
